A study of Mus musculus with 4 samples.

Results

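Trp53, which encodes the transcription factor p53, was examined together with 9 genes tied to it. They are its regulators Mdm2 and Mdm4, the arrest genes Cdkn1a, Ccng1 and Plk2, the stress gene Sesn2, and the death genes Bbc3, Bax and Pmaip1. They were chosen by symbol, as well known parts of the p53 response, and no threshold on measured values entered the choice. Earlier results of these data were known when the choice was made, so it was not blind to them. All 10 were among the 55401 genes of the table, each in 1 row, and all 10 passed the filter on low counts that left 17344 genes to be tested.

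Newly made RNA was measured in 129/Ola mouse embryonic stem cells by 4sU sequencing, in which RNA that has taken up 4-thiouridine is pulled out and sequenced. The series sets loss of SNRNP70, a core protein of the splicing particle U1 snRNP, against loss of ZFP207. The titles place all 4 libraries in the SNRNP70AID line, whose SNRNP70 carries an auxin-inducible degron that lets the auxin IAA send the protein to the proteasome. The comparison is of 2 libraries without auxin (0 h) with 2 libraries after 5 h of IAA, both grown in serum medium with leukemia inhibitory factor. The labels name the genotype of the 0 h libraries WT and that of the 5 h libraries SNRNP70 degradation. No control for IAA itself in cells without the degron, no clone number and no labelling time were given in the sources used here. The series text speaks of independent replicates, but no label names separate cultures, so the p-values cover the spread between these libraries, which may be technical.

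In unstressed cells p53 is kept low because MDM2, a ubiquitin ligase, marks it for destruction, and MDM4, its relative, binds p53 and blunts its activity. When the DNA is damaged, or when transcription or ribosome assembly is disturbed, p53 escapes this control and switches on genes that halt the cell cycle, repair damage or start apoptosis. Mdm2 is itself a p53 target, which closes a feedback loop. Embryonic stem cells are known to make p53 abundantly even without added stress. Changes in labelled RNA concern RNA made shortly before harvest, and not protein.

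After 5 h of auxin 8 of the 10 genes rose and 2 fell relative to the other genes of the library, at a threshold of 0.05 on the p of edgeR's quasi-likelihood test after Benjamini-Hochberg adjustment. Over all tested genes 43.2% were called, 22.0% higher and 21.2% lower. The genes that rose were Trp53 itself, Mdm2, Cdkn1a, Plk2, Sesn2, Bbc3, Bax and Pmaip1, from 1.56-fold for Trp53 to 3.09-fold for Plk2, although Trp53, Bax and Pmaip1 lay below 0 when scaled to mitochondrially encoded genes. Mdm4 and the cyclin gene Ccng1 fell. The median log2 fold change of the 10 genes was 0.84, against -0.02 for all tested genes. In all 10 the 5 h and 0 h libraries did not overlap, as for 73.5% of tested genes. Both 5 h libraries were above both 0 h libraries in 8 genes (36.0% of tested genes) and below them in 2 (37.5%).

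**Figure D1:**
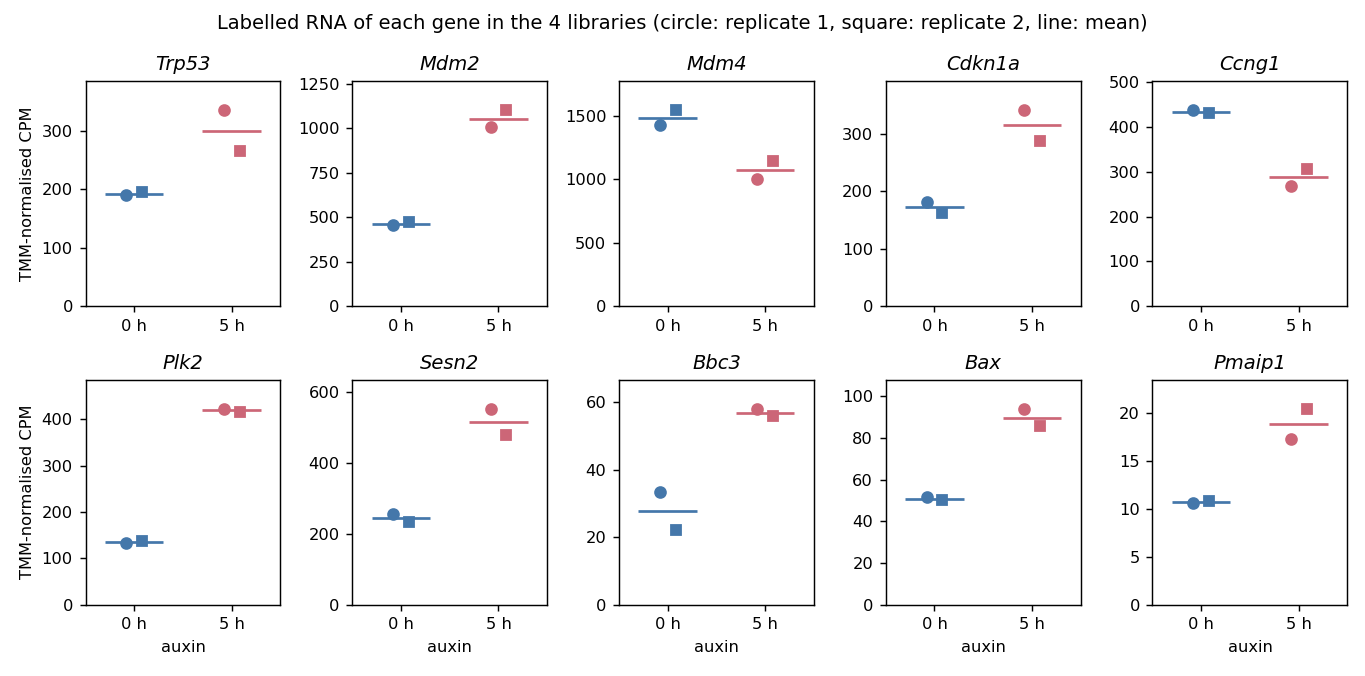
Labelled RNA of the 10 genes in each library, as TMM-normalised CPM (counts on a shared library size) on axes that start at 0, with 0 h in blue, 5 h in red and a line at the mean of the 2 libraries. In 8 panels both 5 h libraries lie above both 0 h libraries, and for Mdm4 and Ccng1 both lie below. With counts scaled to the mitochondrially encoded genes instead, the log2 fold changes of Trp53, Bax and Pmaip1 are below 0.

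The direction of a change depends here on what the libraries are scaled to, and no spiked-in RNA is named. Values are given with TMM factors, which set the typical gene near 0, as CPM (counts on a shared library size) or as log2 fold changes, 5 h minus 0 h. Scaling to library totals moved the median of all genes from -0.02 to -0.28, and scaling to the mitochondrially encoded genes moved it to -0.86. With TMM 50.9% of all calls were higher, with library totals 30.4% and with mitochondrial scaling 4.3%. The same split for the 10 genes was 8 higher and 2 lower with TMM, 7 and 2 with library totals, and 1 and 2 with mitochondrial scaling. Plk2 was the gene still called higher in the last of these, and Mdm4 and Ccng1 were called lower under all 3 scalings. Trp53, Bax and Pmaip1 turned to log2 values of -0.19, -0.021 and -0.042 with mitochondrial scaling, and none of these passed. Measured from the median of all genes, 8 of the 10 genes lay above it under each of the 3 scalings, which shift all genes nearly alike.

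**Figure D2:**
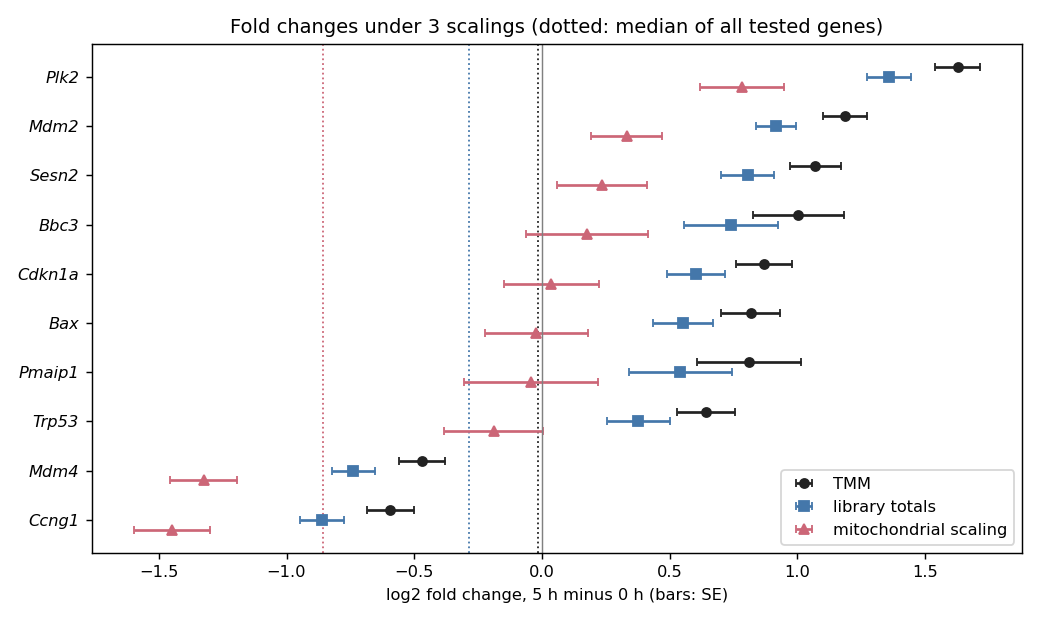
Log2 fold change, 5 h minus 0 h, of the 10 genes with TMM (black circles), library totals (blue squares) and mitochondrial scaling (red triangles), with bars for the standard error and dotted lines at the median of all tested genes under each scaling. Plk2 stays right of 0 and Mdm4 and Ccng1 stay left of it under all 3 scalings, while Trp53, Bax and Pmaip1 move to the left of 0 with mitochondrial scaling.

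Totals ran from 7174772 to 17752887 counts, so a floor of 3 counts stood for 0.154 to 0.382 CPM, a limit on counting error only. Mitochondrially encoded genes took 4.34% to 4.41% of counts at 0 h and 6.03% to 7.17% at 5 h, and their part in the results was not tested. Labelled Snrnp70 RNA was at 249 and 243 CPM at 0 h and at 451 and 475 CPM at 5 h. Since auxin acts on SNRNP70 protein, its RNA cannot serve as a test of the labels. The 10 pluripotency markers examined, among them Pou5f1, Sox2 and Nanog, were all detected and tested, with summed levels from 4088 to 4326 CPM over the 4 libraries, and 4 rose (40.0%) and 3 fell (30.0%), against 22.0% and 21.2% of all tested genes. Markers of fibroblasts, primitive endoderm, mesoderm, neural cells and trophoblast numbered 29. Their summed level ran from 68.7 to 81.0 CPM over the 4 libraries, of which the neural markers made up 38.6 to 42.6 CPM. Of the 17 tested, 1 rose and 2 fell, against 22.0% and 21.2% of all tested genes. Col3a1, Postn, Lum, Dcn and Cdx2 were at 0 in every library. In bulk RNA a smaller share of cells that make a transcript and less RNA per cell cannot be told apart.

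Trp53 lies on chromosome 11 from 69580348 to 69591873 (RefSeq, GRCm38.p6, to which mm10 corresponds, as for all spans below). Its labelled RNA was at 190 and 196 CPM in the 0 h libraries and at 336 and 266 CPM in the 5 h libraries. Replicates were close at 0 h, while the 5 h libraries differed by 0.33 on the log2 scale, and the groups did not overlap. Its log2 fold change was 0.64 ± 0.11 (SE, edgeR quasi-likelihood, Benjamini-Hochberg adjusted p = 0.00118), and it became -0.19 with mitochondrial scaling. Over the 4 pairings of a 5 h with a 0 h library the log2 difference ran from 0.44 to 0.82. Trp53 was the gene with the smallest rise among the 8 that rose.

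Over the 4 libraries the genes most like Trp53, of 9767 named protein-coding genes compared, were Anapc2, Emc1 and Rrp7a. Their root mean square differences from it were 0.0131, 0.0142 and 0.0202 in log2 CPM centred on each gene's mean, a likeness that rests on 4 libraries. No other gene of the RefSeq table overlapped the span of Trp53. By coordinate the span of Wrap53, which encodes a protein of Cajal bodies and telomerase, lies 98 bases from the lower edge of the Trp53 span. Wrap53 was picked out after its values were seen. It stood at 43.3 and 42.4 CPM at 0 h and at 94.0 and 78.3 CPM at 5 h, a log2 fold change of 1.01 ± 0.13, which became 0.18 with mitochondrial scaling and did not pass there. The strand setting of the counting is not known, and reads that reach from one span into the other cannot be told apart. The pseudogene Trp53-ps, which could share reads with Trp53, held at most 3 counts in any library.

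The p53 regulators moved in opposite directions. Mdm2, which encodes the ligase that destroys p53 (chromosome 10, 117688875 to 117710758), was at 454 and 471 CPM at 0 h and at 1004 and 1100 CPM at 5 h. Both 5 h libraries lay far above both 0 h libraries, and replicates were close in each group. The rise was 2.27-fold (log2 1.19 ± 0.09, edgeR quasi-likelihood, Benjamini-Hochberg adjusted p = 1.17e-05), and 0.33 on the log2 scale with mitochondrial scaling, where it did not pass (adjusted p = 0.0591). Mdm4 encodes the relative without much ligase activity of its own (chromosome 1, 132986105 to 133030587). It was at 1425 and 1541 CPM at 0 h and at 1005 and 1139 CPM at 5 h, with no overlap between the groups. Its log2 fold change was -0.47 ± 0.09 (edgeR quasi-likelihood, Benjamini-Hochberg adjusted p = 0.00197). The fall became larger with mitochondrial scaling, at -1.32. Without 0 h replicate 2 the log2 value of Mdm4 was -0.41 and did not pass (edgeR quasi-likelihood, Benjamini-Hochberg adjusted p = 0.0536).

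Their ratio does not depend on any scaling between libraries. It pairs a gene that rose with one that fell, so its change restates these opposite movements. Ratios of other gene pairs were not set beside it. For each count of Mdm4 there were 0.319 and 0.306 counts of Mdm2 in the 0 h libraries and 1.000 and 0.966 in the 5 h libraries. The ratio was thus 3.15-fold higher at 5 h, going from under 1 to close to 1, with little spread within either group. These are counts and not transcripts per length, so the ratio compares libraries and does not say which gene made more RNA. Both genes fall in the class of 3741 tested genes that span 20 to 50 kb, whose median log2 fold change was -0.21. Mdm2 stood above 97.8% of this class and Mdm4 above 38.0% of it. Within the span of Mdm4 lies the pseudogene Gm29257, with 15 to 29 counts per library against at least 10534 for Mdm4. The pseudogene Mdm4-ps had 8 to 42 counts, far fewer than Mdm4 as well. The long non-coding gene Gm41953 also overlaps Mdm4 and was not analysed here.

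The promoters of these regulators are shown because the genes moved apart. Each stretch is the 250 bases before a RefSeq start, 5′ to 3′ on the gene's strand (GRCm38.p6). Capitals mark exact matches to the p53 decamer consensus, the 10-letter element that p53 is known to bind as a pair. The windows are chr10:117710759-117711008 (minus strand) for Mdm2 and chr1:133030588-133030837 (minus strand) for the upstream start of Mdm4.
Mdm2: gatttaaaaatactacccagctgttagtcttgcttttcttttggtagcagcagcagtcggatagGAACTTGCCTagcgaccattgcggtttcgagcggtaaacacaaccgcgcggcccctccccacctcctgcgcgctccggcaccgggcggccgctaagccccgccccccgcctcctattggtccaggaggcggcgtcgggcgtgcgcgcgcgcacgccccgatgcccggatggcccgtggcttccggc
Mdm4: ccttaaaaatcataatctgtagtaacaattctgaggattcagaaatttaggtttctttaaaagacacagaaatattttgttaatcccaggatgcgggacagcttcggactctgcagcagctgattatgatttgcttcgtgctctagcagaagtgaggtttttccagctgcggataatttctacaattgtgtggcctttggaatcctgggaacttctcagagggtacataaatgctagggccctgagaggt

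The Mdm2 window holds 1 decamer, beginning at position -186 where the start base is 0. Neither of the 2 Mdm4 windows in the table holds one without a mismatch. Over all 32851 promoter windows of the RefSeq table, each 250 bases before to 50 after a start, 8.36% held at least 1 exact decamer. Promoter windows were found for 9 of the 10 genes, and Pmaip1 was not matched. Of these 9, 5 had an exact decamer in at least 1 window, namely Trp53, Mdm2, Cdkn1a, Ccng1 and Bax, against 9.55% of the 27025 genes with a window. Ccng1 fell and the other 4 rose with TMM, of which Trp53 and Bax lay below 0 with mitochondrial scaling. Plk2, Sesn2, Bbc3 and Mdm4 had none. With up to 1 mismatch outside the core, 7 of the 9 genes had a decamer, Bbc3 and Mdm4 among them, against 42.8% of the 27025 genes. A match says that the letters are there, and no match says only that they are not in this window. The TATA box letters TATAAA, on either strand, were in 13.6% of windows and in that of Trp53. In Trp53 they lie on the opposite strand at the upstream end of the window, which does not place a TATA box at its start.

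Among the arrest genes, Cdkn1a and Plk2 rose and Ccng1 fell. Cdkn1a encodes p21, the inhibitor of cyclin-dependent kinases through which p53 halts the cycle (chromosome 17, 29090979 to 29100722). It was at 182 and 162 CPM at 0 h and at 341 and 288 CPM at 5 h. The lowest 5 h library stood above the highest 0 h library by a log2 difference of 0.66. It rose by 0.87 ± 0.11 (edgeR quasi-likelihood, Benjamini-Hochberg adjusted p = 0.000154) on the log2 scale, or 1.83-fold, and stood at 0.037 with mitochondrial scaling, where it did not pass.

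Plk2 encodes a polo-like kinase of the stress response that acts in centriole duplication (chromosome 13, 110395044 to 110400844). It had the largest rise of the 10 genes, from 133 and 138 CPM at 0 h to 423 and 416 CPM at 5 h. Replicates differed by only 0.054 at 0 h and 0.022 at 5 h on the log2 scale. This is a log2 fold change of 1.63 ± 0.09 (edgeR quasi-likelihood, Benjamini-Hochberg adjusted p = 6.85e-06), which placed Plk2 above 96.2% of all tested genes. It was 0.78 with mitochondrial scaling and still passed.

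Ccng1 encodes cyclin G1, a p53 target that brings a phosphatase to MDM2 (chromosome 11, 40748552 to 40755309). It went the other way, from 437 and 431 CPM at 0 h to 269 and 306 CPM at 5 h. The 0 h libraries were nearly equal, and both 5 h libraries lay well below them. The log2 fold change was -0.59 ± 0.09 (edgeR quasi-likelihood, Benjamini-Hochberg adjusted p = 0.000553), and -1.45 with mitochondrial scaling. In its span class of 5 to 20 kb, where the median of 4634 genes was -0.01, Ccng1 stood above 25.6% of genes, Cdkn1a above 89.1% and Plk2 above 97.8%.

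Cdkn1a and Ccng1 are shown because both windows carry exact decamers, in capitals, while their RNA moved in opposite directions with TMM. The windows are chr17:29090729-29090978 (plus strand), before the upstream RefSeq start of Cdkn1a, and chr11:40755287-40755536 (minus strand) for Ccng1.
Cdkn1a: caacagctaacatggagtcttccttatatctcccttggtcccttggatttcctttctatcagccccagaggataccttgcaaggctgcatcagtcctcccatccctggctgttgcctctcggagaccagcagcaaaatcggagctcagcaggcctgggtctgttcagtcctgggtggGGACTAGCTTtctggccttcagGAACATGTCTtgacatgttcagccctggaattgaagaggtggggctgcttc
Ccng1: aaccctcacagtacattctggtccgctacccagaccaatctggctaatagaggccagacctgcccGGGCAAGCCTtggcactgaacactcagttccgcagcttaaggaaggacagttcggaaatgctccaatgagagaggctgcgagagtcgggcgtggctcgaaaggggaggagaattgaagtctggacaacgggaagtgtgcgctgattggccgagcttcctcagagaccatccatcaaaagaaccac

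The Cdkn1a window holds 2 exact decamers, at positions -73 and -51, close enough to count as a pair with a gap of at most 13 bases. Such pairs were in 0.0731% of all windows, 24 of 32851, and among the 9 genes with a window Cdkn1a alone had one. With up to 1 mismatch outside the core of each decamer the share was 1.39% of windows. The second exact decamer is followed directly by a further one with 1 mismatch, and together they span the 20 bases from 29090928 to 29090947 on chromosome 17.
Cdkn1a pair: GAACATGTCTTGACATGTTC
It begins 2841 bases before the downstream RefSeq start of Cdkn1a, whose own window has no exact decamer. The window of Ccng1 has 1 decamer, at position -185. The counts are per gene, so RNA from the Cdkn1a starts could not be separated.

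Sesn2 encodes sestrin 2, which restrains growth signalling through mTORC1 and lowers oxidative damage under stress (chromosome 4, 132492804 to 132510456). It was at 256 and 234 CPM at 0 h and at 552 and 479 CPM at 5 h. The groups were far apart against their own spread. The rise was 2.10-fold (log2 1.07 ± 0.10, edgeR quasi-likelihood, Benjamini-Hochberg adjusted p = 3.45e-05), with a log2 value of 0.24 under mitochondrial scaling, which did not pass. Sesn2 is also known as a target of the stress factor ATF4.

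The 3 death genes rose with TMM, and Bax and Pmaip1 lay just below 0 with mitochondrial scaling. Bbc3 encodes PUMA, a BH3-only protein that frees BAX and BAK to open mitochondria (chromosome 7, 16308398 to 16318334). It was at 33.5 and 22.3 CPM at 0 h and at 58.0 and 55.9 CPM at 5 h, from 175 to 840 counts. Its 0 h libraries differed by 0.59 on the log2 scale, the widest replicate gap of the 10 genes, while its 5 h libraries were close. The log2 fold change was 1.00 ± 0.18 (edgeR quasi-likelihood, Benjamini-Hochberg adjusted p = 0.00119), or 2.01-fold, and 0.18 with mitochondrial scaling, where it did not pass.

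Bax, which encodes the pore-forming protein itself (chromosome 7, 45461695 to 45466903), was at 51.5 and 50.3 CPM at 0 h and at 93.8 and 85.6 CPM at 5 h. Each group was tight and the 4 pairings of libraries gave log2 differences from 0.73 to 0.90. The log2 fold change was 0.82 ± 0.11 (edgeR quasi-likelihood, Benjamini-Hochberg adjusted p = 0.000286), and -0.021 with mitochondrial scaling.

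Pmaip1 on chromosome 18 encodes NOXA, a BH3-only protein that holds back MCL1. It had the fewest counts of the 10 genes, 85 to 251 per library. It was at 10.7 and 10.8 CPM at 0 h and at 17.3 and 20.4 CPM at 5 h, with the 5 h libraries above both 0 h libraries. On the log2 scale the change was 0.81 ± 0.20 (edgeR quasi-likelihood, Benjamini-Hochberg adjusted p = 0.00864), with library totals 0.54 (adjusted p = 0.0533), which did not pass, and with mitochondrial scaling -0.042. Bax, Bbc3 and Pmaip1 stood above 87.5%, 92.4% and 87.2% of the genes of their span class, 5 to 20 kb.

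Within each library the counts of the other 9 genes were also set against those of Trp53, which removes any scaling between libraries. Among these genes that rose, Trp53 rose least, at log2 0.64 with TMM, which lay above 78.7% of all tested genes. The others that rose therefore gain on Trp53, while Mdm4, Ccng1 and most tested genes lose against it. The direction of these ratio changes thus restates the fold changes and is not separate evidence. Relative to Trp53, Plk2 gained 1.00 on the log2 scale, Mdm2 0.55, Sesn2 0.44 and Cdkn1a 0.24. Mdm4 and Ccng1 changed by -1.10 and -1.23. The 5 h libraries lay above both 0 h libraries for 5 genes (Plk2, Mdm2, Sesn2, Cdkn1a and Bax, at 0.18) and below them for 2, against 11.2% and 61.6% of all other tested genes. The groups thus did not overlap for 7 of 9 genes, against 72.8%, and they overlapped for Bbc3 (0.43) and Pmaip1 (0.18). All these ratios share the Trp53 value, which at 5 h was lower in replicate 2 than in replicate 1.

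**Figure D3:**
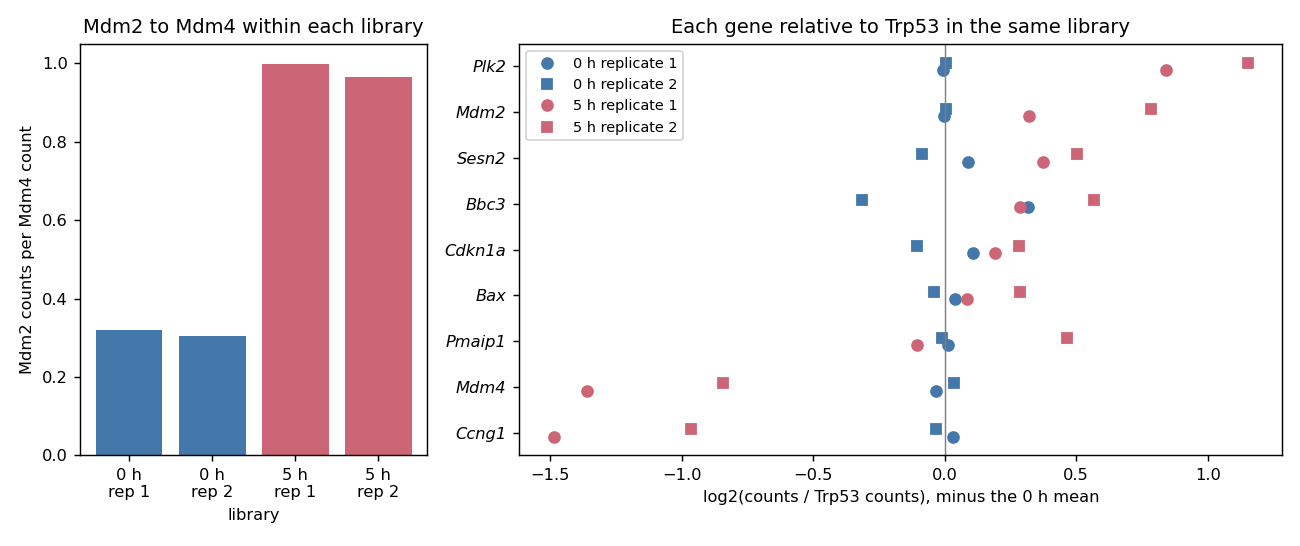
Left, counts of Mdm2 per count of Mdm4 in each library, with bars from 0. Right, the log2 ratio of each gene's counts to the Trp53 counts of the same library, drawn as the distance from the 0 h mean of that gene (blue 0 h, red 5 h; circles replicate 1, squares replicate 2). The Mdm2 to Mdm4 ratio goes from 0.319 and 0.306 to 1.000 and 0.966, and Mdm4 and Ccng1 are the genes that lie left of 0 in both 5 h libraries.

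Other known p53 targets moved both ways, with more of them higher than lower under TMM. The 42 targets were listed from general knowledge, with earlier results of these data known. Of these, 40 were tested, of which 17 rose (42.5%, against 22.0% of all genes) and 7 fell (17.5%, against 21.2%), and 16 did not pass. Their median log2 fold change was 0.28, against -0.02 for all genes. With library totals 13 were higher and 10 lower, and with mitochondrial scaling 2 and 20. Over all 17344 tested genes 2297 were higher and 5257 lower with library totals, and 396 and 8872 with mitochondrial scaling. Apaf1, Sesn1 and Plk3 of this list are counted again in the lists below, where Sesn1 and Plk3 are among the paralogs that rose. Bak1 and Bok are counted both with the BCL2 family and with the paralogs.

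The genes with the lowest adjusted p among those that rose were Ddit4, Gadd45a, Phlda3 and Pidd1. Ddit4, which encodes the mTORC1 inhibitor REDD1, went from 28.7 ± 2.27 to 87.3 ± 10.2 CPM (SD, n = 2; log2 1.60 ± 0.14 SE), and was still called with mitochondrial scaling. Gadd45a, a growth arrest gene of the damage response, rose from 104 ± 14.5 to 252 ± 22.2 CPM. Phlda3, which restrains AKT, and Pidd1, a death domain gene, had log2 fold changes of 1.08 and 0.87. With mitochondrial scaling Gadd45a, Phlda3 and Pidd1 did not pass, at 0.42, 0.25 and 0.039. The other target called higher there was Rprm, a gene of cycle arrest with 10 to 97 counts per library, at 1.28.

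Among the targets that fell were the DNA repair genes Xpc and Polk. Xpc, which finds lesions for nucleotide excision repair, fell from 34.5 ± 1.94 to 14.3 ± 0.117 CPM (SD, n = 2; log2 -1.27 ± 0.16 SE). Polk, a polymerase that copies past damage, changed by -0.75. Trp53inp1, a nuclear partner of p53, and Tigar, which lowers glycolytic flux, changed by -0.51 and -0.46. All 4 were lower under each of the 3 scalings. The rest of the 7 that fell were Ddb2, Rrm2b and Ephx1, named after their values were seen. Of these Ddb2 and Rrm2b also serve DNA repair, while the repair gene Ercc5 of the same list did not pass (-0.03). Ddb2 (log2 -0.76) no longer passed without 0 h replicate 1 (-0.69), without 0 h replicate 2 (-0.81) or without 5 h replicate 1 (-0.39).

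Of 33 genes that act on p53 (kinases, ligases, deubiquitinases, acetyltransferases and MDM2-binding proteins), 32 were tested, of which 15 rose (46.9%, against 22.0% of all tested genes), 8 fell (25.0%, close to the 21.2% of all tested genes) and 9 did not pass. With library totals 10 were higher and 9 lower, and with mitochondrial scaling 1 and 19. Over all 17344 tested genes these were 2297 and 5257, and 396 and 8872. Rpl11 and Rpl23, ribosomal proteins known to bind MDM2 when ribosome assembly is disturbed, rose by 1.47 ± 0.10 and 1.05 ± 0.10 on the log2 scale. Ribosomal protein genes have near-identical pseudogene copies, so their counts are uncertain. Rpl11 alone stayed called with mitochondrial scaling, at 0.63. The DNA damage kinase genes Atr and Prkdc fell, Atr from 83.1 ± 2.65 to 26.4 ± 4.06 CPM (SD, n = 2; log2 -1.66 ± 0.14 SE) and Prkdc by 1.47 on the log2 scale. Of the other damage kinase genes of the list, named after their values were seen, Atm (-1.02) and Chek2 (-0.48) also fell, and Chek1 (0.17) did not pass. Among tested genes with a span, the median log2 fold change went down with span. It was 0.49 in the class under 5 kb, -0.21 at 20 to 50 kb and -0.29 in the class of the longest spans. Genes of this list were not set against their span class, so the part of gene length in their changes was not tested. Chek2 no longer passed without 0 h replicate 2 (-0.43, edgeR quasi-likelihood, Benjamini-Hochberg adjusted p = 0.0956). Fewer genes of this list were called lower when 0 h replicate 1 or 2 was left out, as were fewer of all tested genes.

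Genes of the BCL2 family and of caspase activation were split. Of 20, 19 were tested, of which 6 rose (31.6%, against 22.0% of all tested genes), 7 fell (36.8%, against 21.2%) and 6 did not pass, with a median of -0.16. With library totals 2 were higher and 8 lower, and with mitochondrial scaling 0 and 13. Over all 17344 tested genes these were 2297 and 5257, and 396 and 8872. Mcl1, which keeps cells alive by holding BH3-only proteins, rose from 591 ± 12.6 to 1038 ± 131 CPM (SD, n = 2; log2 0.81 ± 0.10 SE) and was at -0.05 with mitochondrial scaling. Diablo, whose protein relieves caspase inhibition, fell from 61.4 ± 1.70 to 26.8 ± 1.89 CPM. Without 0 h replicate 2 fewer genes of this list were called higher, as were fewer of all tested genes.

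Paralogs of the 10 genes did not all follow them. Of 13, Trp63 had no count in any library, and of the 12 tested 5 rose (41.7%, against 22.0% of all tested genes), 2 fell (16.7%, against 21.2%) and 5 did not pass. This became 2 and 2 with library totals and 0 and 4 with mitochondrial scaling. Over all 17344 tested genes these were 2297 and 5257, and 396 and 8872. Plk4, the kinase that starts centriole duplication, rose by 0.58 ± 0.12 on the log2 scale and lay at -0.27 with mitochondrial scaling. Sesn3, the relative of Sesn2, fell from 21.1 ± 0.502 to 8.06 ± 0.367 CPM (SD, n = 2; log2 -1.39 ± 0.20 SE), opposite to Sesn2. Without 0 h replicate 2 fewer paralogs were called higher, as were fewer of all tested genes. Of 7 non-coding genes known as p53 targets, 4 were tested, of which 0 rose (against 22.0% of all tested genes) and 1 fell (25.0%, close to 21.2%). The paraspeckle RNA Neat1 fell from 396 ± 10.6 to 258 ± 1.53 CPM (SD, n = 2) and the other 3 did not pass. Of these Mir34a had only 4 to 21 counts per library.

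**Figure D4:**
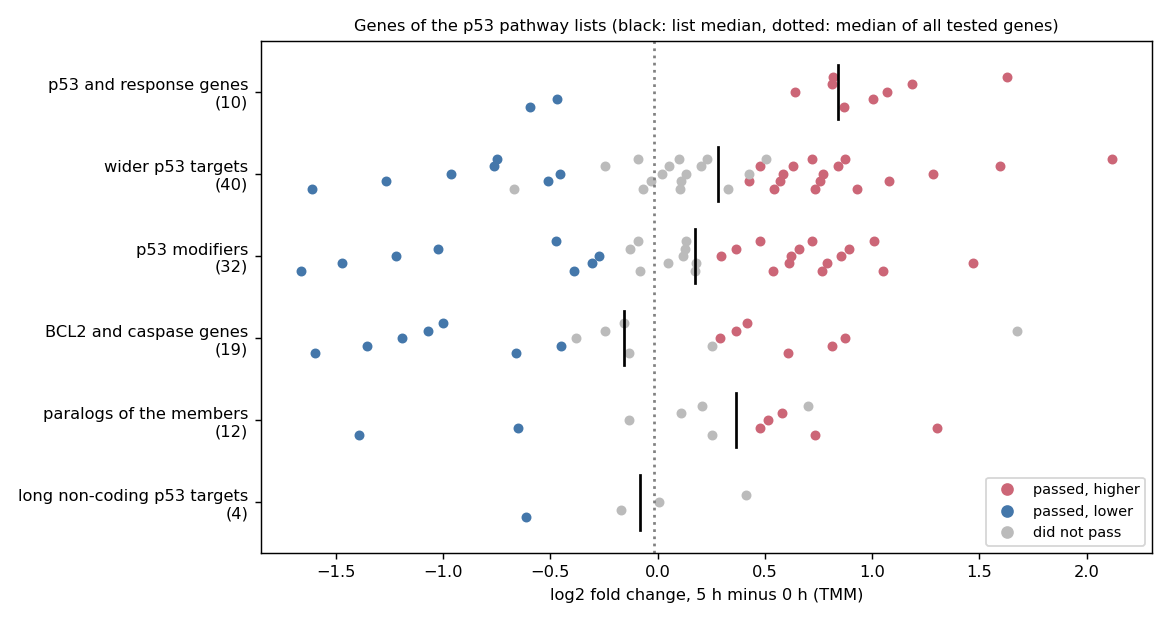
Log2 fold change, 5 h minus 0 h with TMM, of each tested gene in the p53 lists, 1 point per gene, red or blue where it passed the test as higher or lower and grey where it did not, with a black line at each list's median. The 10 genes have the highest median, 0.84, and the other lists lie on both sides of 0, with medians from -0.16 to 0.37. With mitochondrial scaling most points would move left, as the median of all tested genes does, from -0.02 to -0.86.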

How the data were processed

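The deposited table held 1 whole number per gene and library, unscaled, treated here as an estimated count. Its gene identifiers have the form of a StringTie export, and 3 was a more frequent value than 2 in each library, as happens when counts are derived from coverage. Counting error can therefore exceed what the numbers imply. The submitters' processing notes name mm10 and the tools HISAT2 (2.2.1), StringTie (2.2.1) and DESeq2 (1.42.0), without their roles. Annotation and strand setting are not given in the sources used here.

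Genes were kept by filterByExpr and fitted in edgeR 4.0.16 with TMM factors (0.896 to 1.10), robust quasi-likelihood and no replicate block, over all 17344 tested genes, and the script was tested on simulated data. limma 3.58.1 gave the voom alternative, and DESeq2 1.42.0 the other. CPM are TMM-normalised. SE is of the log2 fold change. Ratios between genes were taken within each library on the deposited counts. RefSeq symbols (GRCm38.p6) matched 39078 genes, and 15029 tested genes had a span. Motifs were searched on both strands, and the decamer consensus is its own reverse complement.

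The 10 genes and the lists were chosen with earlier results of these data known. The rule named all 10 genes, and from each list the genes with the lowest adjusted p in each direction (4 for targets, 2 for p53 modifiers, 1 otherwise), the 3 genes most like Trp53 among those averaging 5 CPM or more, and genes overlapping the 10. Alternatives were size factors, scaling, filters, tests, counts divided by 4, a replicate block and leaving out each library. The replicate numbers were not treated as pairing the samples. With 2 libraries per group the deviations of replicate 1 from the group means correlated at 0.05 across genes, which are not independent.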

Additional observations from a re-analysis of the deposited data

How the results depend on the processing

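Ccng1 and Plk2 kept their direction and passed under all 13 alternatives run for each gene, and the other 8 genes did so under all but those named here. With mitochondrial scaling Trp53 (-0.19), Bax (-0.021) and Pmaip1 (-0.042) turned below 0, and Mdm2 (0.33), Sesn2 (0.24), Bbc3 (0.18) and Cdkn1a (0.037) no longer passed. With library totals Pmaip1 (0.54) did not pass. Leaving out each library in turn gave a log2 fold change for Mdm4 of -0.55 to -0.38, which did not pass without 0 h replicate 2 (-0.41). The same range was 0.47 to 0.82 for Trp53 and 0.76 to 1.36 for Bbc3. The cause was not tested for any of these beyond the shift of all genes that the scalings impose. The number of the 10 genes called higher was 1 with mitochondrial scaling and 4 at 2-fold or more, and the number called lower was 0 at 2-fold or more and 1 to 2 without single libraries.

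Of all tested genes, 2297 were higher with library totals, 396 with mitochondrial scaling and 1318 at 2-fold or more. The numbers lower were 5257, 8872 and 1764 in the same order. With mitochondrial scaling 2 wider targets were higher and 20 lower, 1 and 19 p53 modifiers, 0 and 13 BCL2 and caspase genes, 0 and 4 paralogs, and 3 non-coding targets lower. With library totals 2 BCL2 and caspase genes and 2 paralogs were higher, and 2 non-coding targets lower. Without single libraries the number higher was 3 to 7 for BCL2 and caspase genes and 3 to 6 for paralogs, and the number of p53 modifiers lower was 4 to 8. The numbers of all tested genes called also changed without single libraries. With up to 1 mismatch outside the core, 39.6% of promoter windows held a p53 decamer.

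A replicate block in the model called 8 of the 10 genes higher and 2 lower, as without it, with log2 fold changes from -0.60 for Ccng1 to 1.63 for Plk2. It changed none of the 10 calls. Over all genes it called 3837 higher and 3545 lower. Depth limits Pmaip1 most, with 85 counts in its shallowest library.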

Other observations

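Some genes carry p53 in their symbol and were in none of the lists. Trp53rka, a copy of the gene for a kinase known to phosphorylate p53, was at 25.1 and 20.5 CPM at 0 h and at 44.1 and 38.7 CPM at 5 h, a log2 fold change of 0.85 ± 0.16 (SE, edgeR quasi-likelihood, Benjamini-Hochberg adjusted p = 0.00170), and 0.019 with mitochondrial scaling, where it did not pass. Its near copy Trp53rkb was at 23.6 and 19.6 CPM at 0 h and at 20.5 and 17.7 CPM at 5 h, and did not pass (-0.18 ± 0.18). Reads of such copies can be split between them by the counting, so both values are uncertain, and the difference between the copies was not tested. Trp53i11 fell from 26.9 ± 1.00 to 19.4 ± 0.858 CPM (SD, n = 2; log2 -0.47 ± 0.16 SE), and no longer passed when any 1 of the 4 libraries was left out (-0.50 to -0.42). Trp53inp2 (-0.42 ± 0.24) and Trp53i13 (0.68 ± 0.52) did not pass, and Trp53tg5 had no count in any library.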
